A study of Mus musculus with 6 samples.

Results

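The 8 genes described here carry the growth hormone signal into the hepatocyte and answer to it: Ghr and Prlr (receptors), Jak2 (kinase), Stat5a and Stat5b (transcription factors), and Cish, Socs2 and Bcl6 (target genes). They were taken by gene name from a table of 54532 genes, and all 8 were found, each once. Bcl6, Cish and Socs2 were chosen by their difference in FPKM between these same livers and the others as the steps of their pathway, so the differences of all 8 between the groups are given as a description, with no test. The livers came from 3 mice with a hepatocyte-specific deletion of Notch1 (genotype Hepatocyte Notch1 KO, called KO) and from 3 mice carrying floxed Notch1 alleles (Notch1fl/fl, called Control), all labelled as untreated. Messenger RNA of whole liver was sequenced, in a study that asks what hepatocyte Notch1 does for thrombopoietin production. The Cre that deletes the gene, and the age, sex, feeding state and hour of collection of the mice, are not stated in the labels.

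Growth hormone is released from the pituitary in pulses and binds GHR on hepatocytes. The receptor has no enzyme activity of its own: it holds JAK2, which phosphorylates STAT5, and STAT5 dimers move to the nucleus and bind DNA. Within a short time of a pulse STAT5 induces Cish and Socs2, whose products bind the receptor complex through an SH2 domain and damp the signal. Bcl6, which encodes a zinc finger repressor best known from germinal centre B cells, is a STAT5-repressed gene in liver, and BCL6 protein can bind DNA elements that resemble those of STAT5. Prolactin uses the same kinase and the same STATs through PRLR.

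Sequences are shown for Cish and Bcl6, the genes whose levels differed most, because STAT5 dimers bind TTCNNNGAA (N is any base), a pattern that reads the same on both strands. RefSeq start windows of build GRCm38.p6, each with 250 bases before and 50 bases after a start, were found for 7 of the 8 genes, 13 windows in all; Socs2 had no window. The pattern stood in 4 of the 13 windows, those of Cish, of both Bcl6 starts and of 1 Prlr start, where it occurs in 8.30% of all 32851 windows of this length. Capitals mark the pattern in the sequences, which run 5′ to 3′ on the strand of the gene.
Cish, chr9:107296409-107296708, plus strand: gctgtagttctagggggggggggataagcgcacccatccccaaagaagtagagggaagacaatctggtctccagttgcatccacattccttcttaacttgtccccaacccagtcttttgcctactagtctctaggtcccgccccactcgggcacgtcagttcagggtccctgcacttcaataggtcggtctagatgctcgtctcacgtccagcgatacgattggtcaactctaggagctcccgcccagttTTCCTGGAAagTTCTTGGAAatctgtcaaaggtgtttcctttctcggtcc
Bcl6, outer start, chr16:23988803-23989102, minus strand: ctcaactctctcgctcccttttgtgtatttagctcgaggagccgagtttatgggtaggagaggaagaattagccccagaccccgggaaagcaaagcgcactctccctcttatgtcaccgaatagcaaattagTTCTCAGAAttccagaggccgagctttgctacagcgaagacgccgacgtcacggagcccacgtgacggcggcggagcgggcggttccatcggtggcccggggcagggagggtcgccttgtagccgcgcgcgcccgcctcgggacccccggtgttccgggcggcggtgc
Bcl6, start inside the gene, chr16:23981234-23981533, minus strand: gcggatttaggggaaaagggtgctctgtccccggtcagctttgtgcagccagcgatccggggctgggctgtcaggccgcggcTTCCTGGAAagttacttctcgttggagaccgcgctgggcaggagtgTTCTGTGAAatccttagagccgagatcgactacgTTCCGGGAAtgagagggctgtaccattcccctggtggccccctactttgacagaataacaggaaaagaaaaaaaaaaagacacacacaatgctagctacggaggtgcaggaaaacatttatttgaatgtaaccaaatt
The Cish window holds TTCCTGGAA from its base 251, the first base at that RefSeq start, and TTCTTGGAA from base 262, and 0.457% of all windows have the pattern 2 times or more. This whole window lies inside the Cish gene of the FPKM values, which begins at 107296026. The inner Bcl6 window holds it 3 times (TTCCTGGAA, TTCTGTGAA and TTCCGGGAA), and 0.0335% of all windows have it 3 times or more. The outer window holds TTCTCAGAA. The same pattern with 4 bases in its middle in place of 3 was in 0 of the 13 windows and in 6.95% of all windows. These are matches of letters, and binding was not measured.

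Values are FPKM, that is fragments divided by gene length in kilobases and by a library factor, which puts genes of different length on 1 scale. Levels of different genes can be compared only as far as these lengths match the transcripts present in liver, which was not tested. The length used was 15339 bases for Prlr and 9531 bases for Socs2. For Cish it was 6419 bases, in a gene that spans 107296026 to 107302784. The libraries held 15612924 to 17511961 reads in genes, and the reads behind each value below were recovered from the FPKM steps. Notch1 itself measured 0.301, 0.540 and 0.292 FPKM in KO livers 1 to 3, against 0.618, 0.965 and 0.854 FPKM in Control livers 1 to 3, a difference that did not pass the threshold (limma over 12022 genes, adjusted p = 0.257); such a value adds up all exons and all cell types of the liver. Of 8 hepatocyte markers 6 had lower and 2 higher means, and 6 overlapped between the groups. Alb and Apoa1, those with the highest levels, averaged 25939 ± 4769 and 6126 ± 738 FPKM in KO livers and 33417 ± 3811 and 6757 ± 285 FPKM in Control livers (SD, n = 3 each). Fgb and Ass1, those with higher means, averaged 1572 ± 644 and 1165 ± 331 FPKM in KO livers and 1251 ± 98.8 and 1098 ± 92.7 FPKM in Control livers. The sum of the 8, most of it Alb, was 34857 to 45415 FPKM in KO livers and 48208 to 55794 FPKM in Control livers, so it did not overlap. KO liver 2 stood apart from KO livers 1 and 3. Saa1, an inflammation-induced serum amyloid, measured 1023, 16.2 and 1596 FPKM in KO livers and 41.9, 15.2 and 12.8 FPKM in Control livers. For Saa1, KO liver 2 thus lay among the Control livers, and KO livers 1 and 3 lay above them. Hsd3b5 is a male-type gene that needs pulsed growth hormone. It measured 193, 14.04 and 106 FPKM in KO livers and 243, 208 and 192 FPKM in Control livers, lowest in KO liver 2. Log2 differences below are KO minus Control on the log2(FPKM + 1) scale. That scale compresses differences between low values, and ratios of mean FPKM are given as well.

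Ghr (ENSMUSG00000055737, chromosome 15, 3317760 to 3583492, minus strand, in build GRCm38 as for all genes here), the growth hormone receptor, had the highest level of the 8 genes in both groups. It measured 48.6, 36.2 and 38.8 FPKM in KO livers 1 to 3, against 69.5, 60.8 and 54.9 FPKM in Control livers 1 to 3, from 6002 to 6581 reads in KO livers and 8264 to 9441 reads in Control livers. The groups did not overlap, but the highest KO liver and the lowest Control liver were only 1.13-fold apart. The Control mean was 1.5 times the KO mean (log2 difference -0.58, SE 0.15), and in same-numbered livers the Control value was 1.43, 1.68 and 1.42 times the KO value. The gene has 10 transcripts in the GENCODE M21 annotation, and gene-level values cannot tell the membrane receptor from the short form that encodes the circulating binding protein.

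Prlr (ENSMUSG00000005268, chromosome 15, 10177238 to 10349180), the prolactin receptor, measured 3.97, 3.95 and 3.27 FPKM in KO livers and 3.38, 3.91 and 4.19 FPKM in Control livers. The groups overlapped, and the means were 1.03-fold apart (log2 difference -0.03, SE 0.11). The level of Ghr was 9.17 to 12.3 times that of Prlr in KO livers and 13.1 to 20.6 times in Control livers, so the ratio of the receptors did not overlap between the groups.

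Jak2 (ENSMUSG00000024789, chromosome 19, 29251828 to 29313080), the receptor-bound kinase, measured 3.47, 2.47 and 2.90 FPKM in KO livers, from 249 to 261 reads, against 3.27, 3.07 and 3.03 FPKM in Control livers, from 247 to 253 reads. The KO values lay on both sides of the Control values, with a log2 difference of -0.07 (SE 0.11). Rescaling to equal total reads turned the small differences of Jak2 (0.03) and Prlr (0.08) to the other sign.

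Stat5b (ENSMUSG00000020919, chromosome 11, 100780731 to 100850724), the main STAT5 of liver, measured 11.9, 13.0 and 13.4 FPKM in KO livers and 11.5, 12.3 and 13.0 FPKM in Control livers. Stat5a (ENSMUSG00000004043, chromosome 11, 100859351 to 100885169), its neighbour and close paralogue, measured 1.27, 2.10 and 1.92 FPKM in KO livers and 0.934, 1.80 and 1.52 FPKM in Control livers. Both genes overlapped between groups (log2 differences 0.06, SE 0.09, for Stat5b and 0.20, SE 0.18, for Stat5a). Liver 1 had the lowest Stat5a and the lowest Stat5b in each group. The level of Stat5b was 6.19 to 9.42 times that of Stat5a in KO livers and 6.82 to 12.3 times in Control livers, so most STAT5 messenger RNA was Stat5b in every liver. Of the 50-base windows of the longest Stat5a transcript 10.8% also occur in a Stat5b transcript, so reads could have been split or dropped between the 2 genes, and Stat5a overlaps Stat3 on the other strand.

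Cish (ENSMUSG00000032578, chromosome 9, 107296026 to 107302784, plus strand), an SH2-domain inhibitor of the SOCS family that STAT5 induces, was at the lowest level of the 8 genes in KO livers. It measured 0.417, 0.295 and 0.437 FPKM in KO livers 1 to 3, against 3.46, 3.38 and 5.14 FPKM in Control livers 1 to 3. All KO livers were low, and the lowest Control value was 7.74 times the highest KO value. The KO values rested on 40, 38 and 48 reads and the Control values on 333, 348 and 548 reads. The Control mean was 10.4 times the KO mean (log2 difference -1.84, SE 0.15), and 8.30, 11.5 and 11.7 times in same-numbered livers. An antisense pseudogene within Cish, Gm17040, averaged 0.424 ± 0.235 FPKM in KO livers and 1.154 ± 0.846 FPKM in Control livers (SD, n = 3 each), and without a stated strand setting its reads cannot be told from those of Cish.

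Socs2 (ENSMUSG00000020027, chromosome 10, 95385362 to 95417180, minus strand) encodes an inhibitor that marks the growth hormone receptor for ubiquitin-dependent removal, and mice without it grow large. It measured 2.27, 1.14 and 1.56 FPKM in KO livers 1 to 3, against 9.42, 2.89 and 9.45 FPKM in Control livers 1 to 3. The KO livers lay below the Control livers, but Control liver 2 was close to them, at only 1.27 times the value of KO liver 1. The Control livers spanned 3.27-fold and the KO livers 1.99-fold, the widest spread of the 8 genes in each group. The Control mean was 4.38 times the KO mean (log2 difference -1.52, SE 0.39), and 4.14, 2.53 and 6.06 times in same-numbered livers. Without Control liver 2 the log2 difference was -1.995.

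Bcl6 (ENSMUSG00000022508, chromosome 16, 23965052 to 23988852, minus strand), the repressor, differed in the opposite direction. It measured 9.64, 8.23 and 8.21 FPKM in KO livers 1 to 3, from 940 to 1105 reads, against 2.01, 0.941 and 1.33 FPKM in Control livers 1 to 3, from 101 to 202 reads. All KO livers were high and close to each other, within 1.17-fold, and the lowest KO value was 4.08 times the highest Control value. The KO mean was 6.09 times the Control mean (log2 difference 2.02, SE 0.17), and 4.80, 8.74 and 6.17 times in same-numbered livers. A small gene model within Bcl6 on the other strand, Gm37419, averaged 1.32 ± 0.383 FPKM in KO livers and 1.33 ± 1.48 FPKM in Control livers (SD, n = 3 each).

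**Figure D1:**
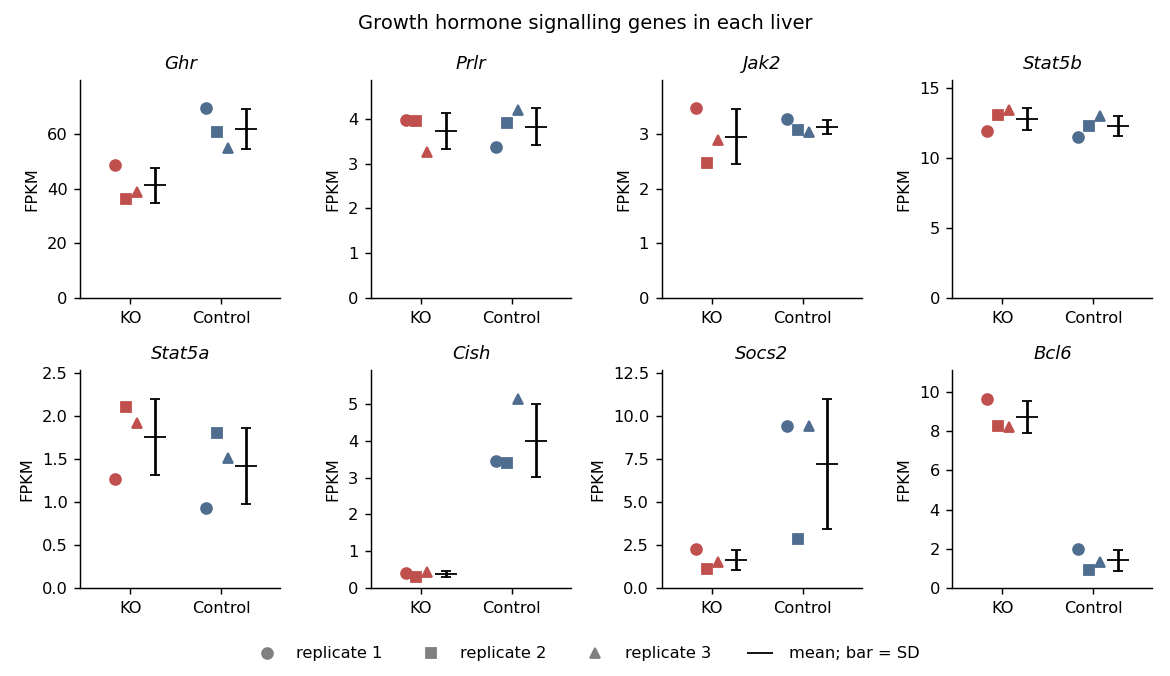
FPKM of the 8 genes in each liver, KO left of Control, with 1 marker shape per replicate number and the mean with its SD (n = 3) beside the points; every axis starts at 0. Cish, Socs2 and Ghr lay lower in all KO livers and Bcl6 higher, while Prlr, Jak2, Stat5b and Stat5a overlapped between the groups.

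Set in order of level, KO livers ran Ghr, Stat5b, Bcl6, Prlr, Jak2, Stat5a, Socs2, Cish, with means of 41.2, 12.8, 8.69, 3.73, 2.94, 1.76, 1.66 and 0.383 FPKM. Within this order the ranges of Prlr and Jak2 overlapped, as did those of Stat5a and Socs2, and no other neighbours did. Control livers ran Ghr, Stat5b, Socs2, Cish, Prlr, Jak2, Bcl6, Stat5a, with means of 61.8, 12.3, 7.25, 3.99, 3.83, 3.12, 1.43 and 1.42 FPKM. There the ranges of Socs2 and Cish, of Cish and Prlr, and of Bcl6 and Stat5a overlapped. By FPKM, and so with the gene lengths used, Bcl6 was thus the third of the 8 genes in KO livers. In Control livers it was level with Stat5a at the bottom.

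Ratios within a liver do not depend on how libraries were scaled, though they do depend on the gene lengths used. The ratio of Bcl6 to Cish was 23.1, 27.9 and 18.8 in KO livers 1 to 3, against 0.581, 0.278 and 0.259 in Control livers 1 to 3. The lowest KO ratio was 32.3 times the highest Control ratio. The ratio of Bcl6 to Socs2 was 4.24, 7.21 and 5.26 in KO livers and 0.213, 0.326 and 0.141 in Control livers. The level of Socs2 was 3.56 to 5.46 times that of Cish in KO livers and 0.853 to 2.72 times in Control livers, so the inhibitors were not lower by the same factor. In Control liver 2 Socs2 lay below Cish in FPKM, but it had more reads, 441 against 348, over a longer gene length.

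**Figure D2:**
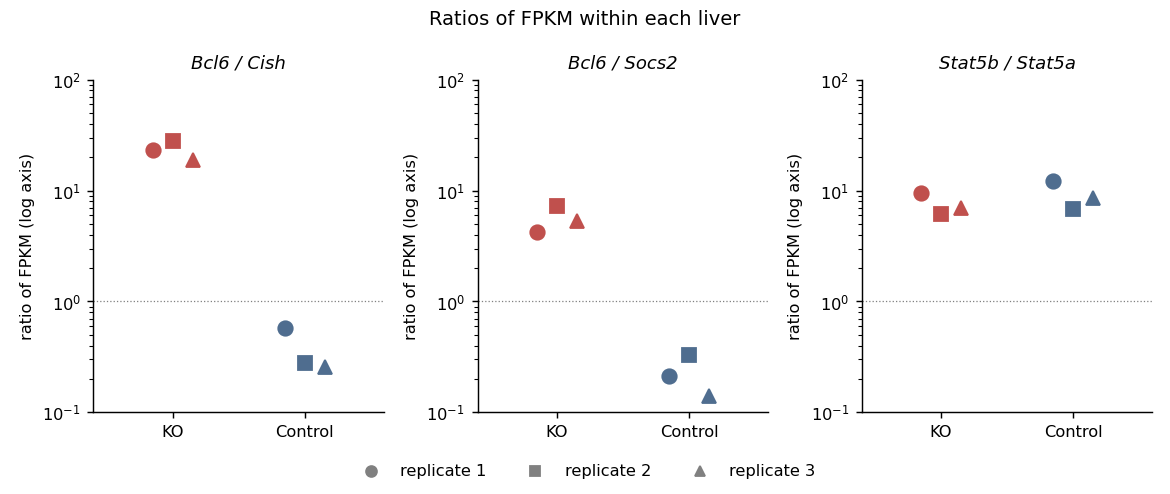
Ratio of FPKM between pairs of the genes within each liver, on a log axis, KO left of Control, with 1 marker shape per replicate number. Bcl6 lay above Cish and Socs2 in all KO livers and below them in all Control livers, and the ratio of Stat5b to Stat5a overlapped between groups.

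Over the 12022 genes that averaged 0.5 FPKM or more, limma called 3 at an adjusted p under 0.05, which is 0.025% of them, with 0.00832% higher and 0.0166% lower in KO livers. These were Bcl6, which was higher, and Cish and Wdfy1, an endosomal adaptor gene, which were lower. So 2 of the 8 genes were among the called genes, a count that only restates how they were chosen. With the replicate number as a block 0 genes were called. The log2 differences were the same under the block, with an SE of 0.12 for both Bcl6 and Cish, and Wdfy1 had a limma adjusted p of 0.0549, against 0.0252 without the block. The groups did not overlap for 4 of the 8 genes, with KO above Control for 1 and below for 3, and for 19.8% of all genes tested. The median log2 difference of the 8 genes was -0.05, beside -0.01 for all genes. Without KO liver 2 the log2 difference was 2.05 for Bcl6, -1.79 for Cish, -1.38 for Socs2 and -0.49 for Ghr.

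Bcl6, Cish and Socs2 are also expressed by lymphocytes, and in whole tissue fewer cells of a type and less RNA per cell cannot be told apart. Of 8 T cell markers 7 were above 0 in every liver, with a summed level of 2.55 to 3.26 FPKM in KO livers and 2.36 to 4.52 FPKM in Control livers. The sum of 8 B cell markers was 15.2 to 19.5 FPKM in KO livers and 18.3 to 22.0 FPKM in Control livers, and that of 7 NK and innate lymphoid markers 3.23 to 3.91 FPKM in KO livers and 3.85 to 4.25 FPKM in Control livers. Of the 3 NK and innate lymphoid markers tested, 1 lay wholly below Control in KO livers (33.3%, beside 10.6% of all genes) and 0 above. It was Gzmb, at 0.407 ± 0.0591 FPKM in KO livers and 0.907 ± 0.0322 FPKM in Control livers (SD, n = 3 each). The part of lymphocytes in the differences was not tested.

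Markers of other cells did separate the groups. All 6 mesothelial markers were above 0 in every liver, and their sum was 84.5, 144 and 114 FPKM in KO livers 1 to 3, against 4.95, 12.4 and 50.6 FPKM in Control livers 1 to 3. Bile duct markers summed to 23.6 to 32.7 FPKM in KO livers and 12.8 to 16.1 FPKM in Control livers. The part of these cells, and of the lower hepatocyte sum, in the differences of Bcl6, Cish, Socs2 and Ghr, and in those of the pathway lists below, was not tested. The acute phase sum was 11949, 2947 and 12164 FPKM in KO livers and 3811 to 4735 FPKM in Control livers, so it set KO liver 2 apart from the other KO livers. The summed levels of neutrophil markers were 11.4 to 38.0 FPKM in KO livers and 6.35 to 17.9 FPKM in Control livers. Kupffer cell markers summed to 198 to 277 FPKM in KO livers and 216 to 275 FPKM in Control livers, stellate cell markers to 60.9 to 84.5 FPKM in KO livers and 60.3 to 76.9 FPKM in Control livers, and sinusoidal endothelial markers to 51.9 to 63.4 FPKM in KO livers and 51.3 to 63.3 FPKM in Control livers. Clock genes summed to 23.0 to 24.4 FPKM in KO livers and 21.2 to 29.5 FPKM in Control livers, and fasting and feeding genes to 749 to 1383 FPKM in KO livers and 731 to 1891 FPKM in Control livers. All 6 of these sums overlapped between the groups, but a sum follows its most abundant members. Of 8 tested clock genes, 2 lay wholly below Control in KO livers (25%, beside 10.6% of all genes) and 0 above. These were Clock and Nr1d2, the latter at 2.18 ± 0.0670 FPKM in KO livers and 3.62 ± 0.687 FPKM in Control livers. The clock sum thus does not show whether the hour of collection was the same. Of 7 sinusoidal endothelial markers, 3 lay wholly below (42.9%) and 0 above.

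**Figure D3:**
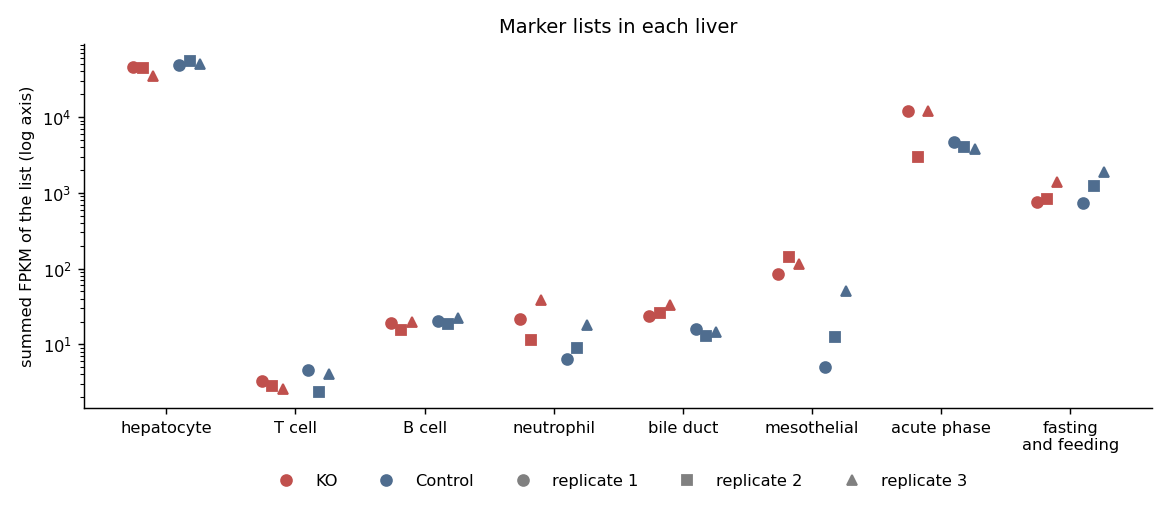
Summed FPKM of 8 marker lists in each liver, on a log axis, with KO points left of Control points in each list and 1 marker shape per replicate number. Hepatocyte, mesothelial and bile duct sums did not overlap between the groups, and the acute phase sum was high in KO livers 1 and 3.

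The rest of the pathway was followed in 11 lists written from textbook knowledge, with 140 genes besides the 8, of which 121 were tested. The lists were chosen with earlier results of these data known, so their counts and shares are a description only. Limma called 0 of the 121 in either direction, beside 0.025% of all genes, voom on recovered reads also called 0, and 32 had an unadjusted p under 0.05 (26.4%, beside 13.9% of all genes). KO livers lay wholly below Control livers for 27 of the 121 (22.3%, beside 10.6% of all genes) and wholly above for 8 (6.61%, beside 9.2%). The genes named in the lists below are therefore described by their values, since none passed.

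Of 10 tested receptor partners and adaptors 7 had lower and 3 higher means. Their median log2 difference was -0.05, and -0.13 without Control liver 1 and -0.01 without Control liver 2. The widest difference of that list was that of Irs2, an insulin receptor substrate, named here after its values were seen. It measured 4.84, 4.78 and 8.44 FPKM in KO livers 1 to 3, against 8.30, 9.90 and 15.8 FPKM in Control livers 1 to 3, with an overlap at KO liver 3 (log2 difference -0.81, limma adjusted p = 0.276). Sos1, an activator of RAS, averaged 3.37 ± 0.378 FPKM in KO livers and 4.10 ± 0.313 FPKM in Control livers (SD, n = 3 each, as for every mean below), and Sh2b1, a JAK2-binding adaptor, 5.70 ± 0.598 FPKM in KO livers and 6.40 ± 0.0805 FPKM in Control livers. Grb2, which couples receptors to SOS, averaged 17.2 ± 2.06 FPKM in KO livers and 14.6 ± 1.55 FPKM in Control livers. Of 19 tested feedback inhibitors and phosphatases 13 had lower means, with a median of -0.01. Ptpn1, a phosphatase that acts on JAK2, averaged 4.79 ± 0.751 FPKM in KO livers and 3.55 ± 0.00670 FPKM in Control livers, and Socs4 averaged 2.92 ± 0.359 FPKM in KO livers and 3.93 ± 0.468 FPKM in Control livers. Pias2, a SUMO ligase of the STAT inhibitor family, and Sh2b3, an adaptor that restrains JAK2, averaged 4.69 ± 0.256 and 3.08 ± 0.231 FPKM in KO livers and 5.42 ± 0.239 and 3.52 ± 0.169 FPKM in Control livers. All 19 log2 differences lay between -0.33 and 0.34. Without KO liver 2, 9 of the 19 had lower means and the median was 0.02.

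Of 7 tested JAK and STAT relatives 4 had lower and 3 higher means, with a median of -0.01, and all 7 overlapped between the groups. Without KO liver 2 all 7 had higher means and the median was 0.02. Jak3 and Stat3, named after their values were seen, averaged 2.54 ± 1.14 and 11.7 ± 3.36 FPKM in KO livers and 1.39 ± 0.142 and 8.94 ± 1.71 FPKM in Control livers, and each had its lowest KO value in KO liver 2. Jak1 averaged 15.2 ± 0.346 FPKM in KO livers and 15.04 ± 0.847 FPKM in Control livers. Stat6 averaged 10.4 ± 0.405 FPKM in KO livers and 10.5 ± 0.858 FPKM in Control livers. Of 7 tested receptors that signal through JAK2, 6 had higher means (median 0.06). The count was 4 without Control liver 3 (median -0.02) and 4 without KO liver 2 (median 0.02). Crlf2, a chain of the thymic stromal lymphopoietin receptor, averaged 6.61 ± 0.174 FPKM in KO livers and 4.48 ± 0.664 FPKM in Control livers (limma adjusted p = 0.165), and Il6st and Ifngr1, receptor chains for interleukin 6 and interferon gamma, overlapped between the groups.

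Genes that STAT5 induces in cytokine-stimulated cells had means on both sides of Control. Of 13 tested, 8 had higher and 5 lower means. Their median log2 difference was 0.17, and 0.26 without KO liver 3 and 0.11 without Control liver 1. Bcl2l1, which encodes the survival factor BCL-XL, averaged 9.66 ± 0.464 FPKM in KO livers and 6.29 ± 0.561 FPKM in Control livers (limma adjusted p = 0.107). Cdkn1a, a cell cycle inhibitor, averaged 30.0 ± 4.96 FPKM in KO livers and 20.45 ± 4.18 FPKM in Control livers, and Ccnd2, a cyclin, 1.54 ± 0.312 FPKM in KO livers and 1.07 ± 0.0565 FPKM in Control livers. Myc was the one with lower values and no overlap, at 1.64 ± 0.486 FPKM in KO livers and 4.77 ± 2.02 FPKM in Control livers.

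Of 15 tested liver genes that growth hormone induces, 0 were called and all 15 had lower KO means, as did 6179 of all 12022 genes. KO livers lay wholly below Control livers for 6 of the 15 (40%, beside 10.6% of all genes and 25% of the 8 hepatocyte markers). The median log2 difference of the 15 was -0.70, beside -0.19 for the hepatocyte markers. Without KO liver 2 the count of lower means was 13 of 15 and the median -0.42, and without Control liver 1 they were 13 and -0.62. Onecut1, a hepatocyte transcription factor induced by growth hormone, measured 1.76, 0.934 and 0.498 FPKM in KO livers 1 to 3, against 9.64, 4.36 and 13.0 FPKM in Control livers 1 to 3. Its lowest Control value was that of Control liver 2, which also had the lowest Control value of Socs2, and its limma adjusted p was 0.107. Igfals, the IGF1 carrier subunit, and Igfbp3, the binding protein of the same complex, averaged 26.3 ± 6.53 and 6.35 ± 2.07 FPKM in KO livers and 44.5 ± 6.22 and 9.70 ± 0.371 FPKM in Control livers. Cyp4a12a, a male-type enzyme, averaged 86.4 ± 40.4 FPKM in KO livers and 189 ± 28.0 FPKM in Control livers. Of the 5 tested lipid genes that growth hormone represses, 3 had higher means (median 0.12). Without KO liver 2 only 1 had a higher mean (median -0.04), and 2 did without Control liver 1 (median 0.01) or Control liver 3 (median 0.02). Cd36, a fatty acid transporter, averaged 14.2 ± 0.416 FPKM in KO livers and 13.3 ± 3.75 FPKM in Control livers. Lpl, lipoprotein lipase, averaged 5.26 ± 3.11 FPKM in KO livers and 6.48 ± 0.643 FPKM in Control livers. The lipid droplet gene Plin4 lay lower without overlap, at 0.358 ± 0.0248 FPKM in KO livers and 0.665 ± 0.131 FPKM in Control livers.

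Among 9 tested regulators that set sex-biased liver expression downstream of growth hormone, 7 had lower means (median -0.10). With 1 liver left out the median ran to -0.36 without Control liver 1, -0.34 without KO liver 3, -0.25 without KO liver 1, -0.18 without Control liver 2 and -0.17 without KO liver 2, and without Control liver 3 the count was 5 lower and 4 higher. Foxa1 and Foxa2, forkhead factors, averaged 3.46 ± 0.3198 and 6.18 ± 1.22 FPKM in KO livers and 8.02 ± 1.598 and 12.9 ± 2.66 FPKM in Control livers (limma adjusted p = 0.103 and 0.118). Cebpa averaged 107 ± 14.5 FPKM in KO livers and 163 ± 18.7 FPKM in Control livers. Trim24, a chromatin reader, had higher values without overlap, at 2.13 ± 0.911 FPKM in KO livers and 1.147 ± 0.2004 FPKM in Control livers.

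Of 13 tested BCL6 cofactors and relatives 10 had higher means. Their median log2 difference was 0.07, and it ran to 0.02 without KO liver 2, 0.14 without KO liver 3 and 0.05 without Control liver 2 or Control liver 3. Tbl1xr1, a subunit of the NCOR and SMRT complexes, averaged 5.64 ± 0.332 FPKM in KO livers and 4.15 ± 0.164 FPKM in Control livers (limma adjusted p = 0.165), and Hdac1 and Zbtb16 overlapped. Of 8 tested genes that BCL6 represses in B cells, 5 had higher and 3 lower means (median 0.09). The median was 0.16 without KO liver 3 and 0.02 to 0.04 without KO liver 1, KO liver 2, Control liver 1 or Control liver 2, with 7 higher without KO liver 2 and 4 without Control liver 1. Cxcl10, a chemokine, averaged 0.9998 ± 0.240 FPKM in KO livers and 1.597 ± 0.386 FPKM in Control livers, while Ccnd2, on this list too, lay higher. Of 18 tested PPARα genes of fatty acid oxidation, a programme that BCL6 represses in mouse liver, 17 had lower means. Over all 12022 genes 6179 had lower means. KO livers lay wholly below Control livers for 10 of the 18 (55.6%, beside 10.6% of all genes and 25% of the 8 hepatocyte markers). The median log2 difference of the 18 was -0.34, and -0.53 without KO liver 3, beside -0.19 for the hepatocyte markers with all livers. Without Control liver 3 the median was -0.31, with 16 of 18 lower. Cyp4a10, a fatty acid hydroxylase, averaged 97.4 ± 23.8 FPKM in KO livers and 230 ± 27.9 FPKM in Control livers (limma adjusted p = 0.105). Vnn1, Angptl4 and Hadha had log2 differences of -0.73, -0.64 and -0.32.

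Genes beside Bcl6, Cish and Socs2 on their chromosomes were close between the groups. Rtp4 and Lpp, 350.8 and 404.7 kb from Bcl6, averaged 6.26 ± 0.440 and 2.11 ± 0.0777 FPKM in KO livers and 7.04 ± 0.599 and 2.12 ± 0.127 FPKM in Control livers. Mapkapk3 and Hemk1, 6.1 and 24.3 kb from Cish, averaged 0.817 ± 0.0922 and 3.15 ± 0.915 FPKM in KO livers and 0.793 ± 0.0857 and 2.73 ± 0.254 FPKM in Control livers. Cradd and Mrpl42, 61.2 and 63.6 kb from Socs2, had log2 differences of -0.08 and 0.05. All 6 neighbours overlapped between the groups.

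Genes with the nearest profiles were found by the root-mean-square distance between centred log2(FPKM + 1) values over the 6 livers, among 10074 genes that averaged 1 FPKM or more. The nearest to Bcl6 were Slc3a1, an amino acid transporter subunit, at a distance of 0.33, CR974586.3 (0.37), Angptl8, a hormone induced by feeding (0.41), Il18r1, an interleukin 18 receptor chain (0.42), and Saa3, a serum amyloid (0.42), where the median gene lay at 1.04. Slc3a1 measured 23.6, 15.1 and 18.3 FPKM in KO livers, against 7.22, 5.44 and 6.44 FPKM in Control livers, so like Bcl6 it was highest in KO liver 1 and, among Control livers, in Control liver 1. The nearest to Cish were Wdfy1 (0.21), Alas1, the first enzyme of heme synthesis (0.22), Arid5b (0.31), Phlda1 (0.32) and Mcm10, a replication factor (0.37). Wdfy1 measured 0.299, 0.584 and 0.829 FPKM in KO livers and 4.39, 4.82 and 4.87 FPKM in Control livers. The nearest to Socs2 were Mir6397 (0.30), E2f8, a cell cycle repressor (0.34), Mcm10 (0.35), 9030616G12Rik (0.36) and Gm12265 (0.37). Mir6397 rested on 1, 0 and 1 reads in KO livers and 4, 1 and 4 reads in Control livers, and Gm12265 on 5, 3 and 0 reads in KO livers and 18, 3 and 16 reads in Control livers, so their places carry little weight. Among the genes nearest to Bcl6, CR974586.3 and Il18r1 each had 1 Control liver with 3 reads. E2f8 measured 1.52, 1.23 and 1.26 FPKM in KO livers, against 5.63, 2.84 and 4.64 FPKM in Control livers, with Control liver 2 the lowest of its group, as for Socs2. Only 6 of these 15 places were kept with a pseudocount of 0.1. All were picked for likeness over these same livers, so the shared high and low livers restate that choice.

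**Figure D4:**
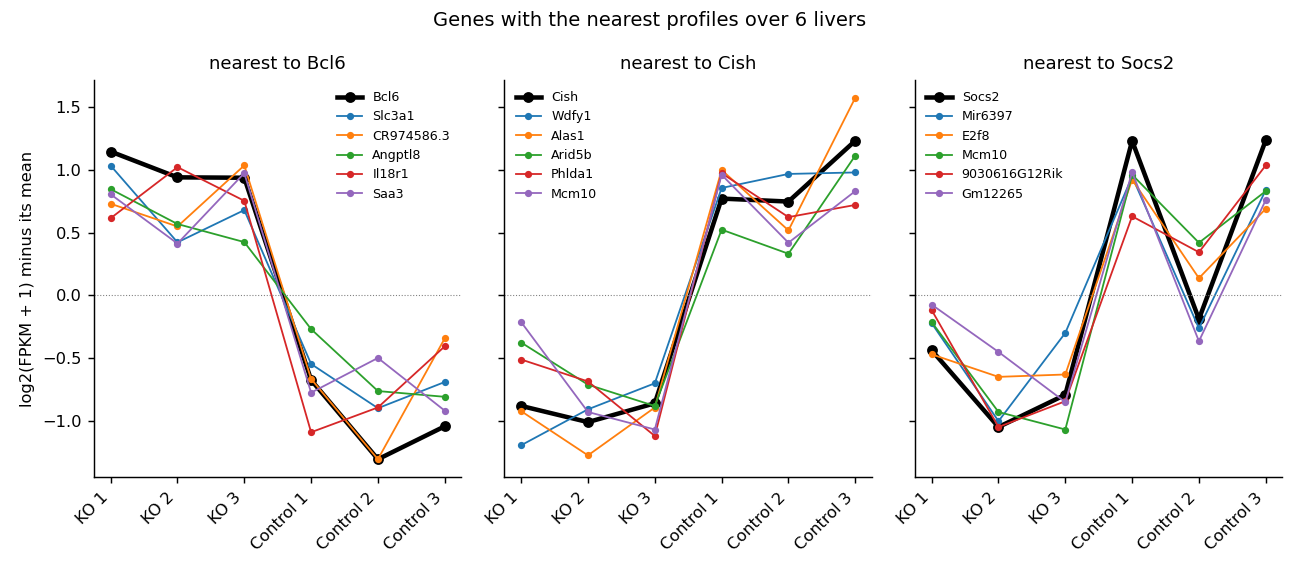
Centred log2(FPKM + 1) of Bcl6, Cish and Socs2 (black) and of the 5 genes nearest to each (colours) in the 6 livers, KO left of Control; lines only join the points of a gene. In the panel of Socs2 the black line and those of its 5 neighbours dip at Control liver 2 between Control livers 1 and 3. The 5 were picked for likeness over these same livers, so the shared dip is no separate result.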

How the data were processed

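Liver messenger RNA of 6 mice was sequenced, 3 per group. The deposited table gives FPKM per gene; per the submitters' processing notes, HISAT2 2.0.5, featureCounts 1.5.0-p3 and build GRCm38 were used, and no source used here gives their settings or strand. Columns named KO were matched to KO livers by title, and the columns of the other name to Control livers because no other samples remained. FPKM times gene length gave whole reads within 0.1 read for every value above 0, and the deposited scaling between libraries was that of median-ratio size factors. A value from 3 reads or fewer is at the counting floor, and recovered reads may hold PCR duplicates.

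The 12022 genes averaging 0.5 FPKM or more entered a fit of log2(FPKM + 1) by limma 3.58.1 (R 4.3.3), with a trended prior and Benjamini-Hochberg adjustment, at an adjusted p of 0.05. P-values set the difference between the groups against the spread of these 6 livers within their groups, with a prior drawn from all tested genes. The script was tested on simulated data. The 8 genes, the 11 pathway lists and the 13 marker lists were chosen with earlier results of these data known. Genes named were those called; per pathway list, up to 4 with the smallest p among those with no overlap and, where that left fewer than 2, the 2 with the highest means; the 5 profiles nearest to Bcl6, Cish and Socs2; their tested protein-coding neighbours; Notch1; and genes that set libraries apart. Deviations of same-numbered livers from their group means correlated at 0.31, 0.16 and 0.10, and those of differently numbered livers at -0.25 to 0.11; the pairing comes from these values alone, since the labels name no shared litter or day. Alternatives covered pseudocount, filter, scaling, voom on recovered reads, the replicate block and each liver left out; list counts without each liver were added after seeing the data.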

Additional observations from a re-analysis of the deposited data

How the results depend on the processing

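Across the 14 alternatives the log2 differences of Ghr, Cish, Socs2, Bcl6, Stat5a and Stat5b kept their sign, and 0 of the tested pathway genes were called under any of them. The count of called genes was less stable than these values. Beside 1 gene higher and 2 lower in KO livers, there were 0 higher and 1 lower with a pseudocount of 0.1, 0 and 0 with no filter, 2 higher with equal total reads, and 4 higher and 11 lower with voom on recovered reads. With the replicate block, 0 higher and 0 lower were called. Leaving out 1 liver gave 0 to 50 higher and 0 to 10 lower: 50 and 8 without Control liver 3, 19 and 10 without KO liver 2, and 0 and 0 without KO liver 1 or Control liver 2. Bcl6 and Cish were both called without KO liver 2 or Control liver 3, only Bcl6 without Control liver 1, and neither without KO liver 1, KO liver 3 or Control liver 2. Both genes were chosen by this contrast, so these calls are no test of them. The log2 difference of Cish was -3.07 with a pseudocount of 0.1, -2.33 with 0.5 and -3.39 with voom, and that of Bcl6 was 2.58, 2.29 and 2.68 in the same order; a smaller pseudocount shrinks low values less. Equal total reads moved the median of all genes by 0.10 and Stat5b to 0.19. With each liver left out the ranges were -0.70 to -0.49 for Ghr, -0.10 to 0.04 for Prlr, -0.16 to 0.02 for Jak2, 0.04 to 0.33 for Stat5a, 0.01 to 0.10 for Stat5b, -1.92 to -1.68 for Cish, -1.995 to -1.28 for Socs2 and 1.87 to 2.18 for Bcl6. Of the 15 nearest places, 6 were shared with a pseudocount of 0.1. Cish in KO livers rested on 38 to 48 reads, the fewest of the 8 genes in any group.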
